A study of Mus musculus with 2 samples.

Results

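The genes for 6 translation elongation factor subunits, Eef1a1, Eef1a2, Eef1b2, Eef1d, Eef1g and Eef2, were followed through single-cell transcriptomes of the mouse basolateral amygdala. They were 6 of 25120 genes with a column in at least 1 of the deposited count tables, and each had a column in both tables. The set was chosen by name, as the subunits of the cytosolic elongation factors, after Eef1a2 had been seen to stand among the genes with the highest ratios between the FGF21 and the vehicle library in microglia-like cells. The Eef1a2 ratios are therefore descriptions and support nothing by themselves. Of the 6 genes, 6 passed the minimum of 50 UMIs (unique molecules counted) over both libraries in each of the 3 cell classes compared between the treatments.

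Elongation factor eEF1A, made from Eef1a1 or Eef1a2, carries each aminoacyl-tRNA to the ribosome with GTP bound, and eEF2 moves the ribosome along the mRNA after each peptide bond. The eEF1B complex recharges eEF1A with GTP: the products of Eef1b2 and Eef1d exchange the nucleotide and that of Eef1g holds the complex together. Eef1a1 is used by nearly all cells, whereas Eef1a2 is known as the form that replaces it in mature neurons and striated muscle, and a deletion in mouse Eef1a2 causes the wasted phenotype with loss of motor neurons.

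Adult C57BL/6 mice received FGF21, a liver hormone, in daily doses of 1 mg/kg on 3 days, or vehicle on the same schedule. Tissue of 3 mice was pooled per treatment, digested with pronase in the presence of the transcription blocker actinomycin D, and sorted for tdTomato fluorescence and Hoechst viability. The series concerns cells that express KLB, the co-receptor of FGF21, and the labels do not name the allele or driver that gave the cells tdTomato. Each pool gave 1 library, so no test of treatment was possible, and every interval below is an exact 95% interval that covers counting error only.

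Both isoform genes code for nearly the same protein from clearly different mRNAs, which is what lets sequencing reads tell them apart. In the GENCODE vM21 annotation of GRCm38, Eef1a1 lies on the minus strand at chr9:78478449-78489151 and Eef1a2 on the minus strand at chr2:181147653-181157014. The translated proteins were identical at 427 of 463 aligned positions (92.2%), while the coding sequences were identical at 1113 of 1392 aligned positions (80.0%). Of the 276 differing bases, 224 stood at the third position of a codon. The start of both coding sequences is shown because it holds 18 base differences in 40 codons and 0 differences in the encoded residues. It lies in exon 2 of both transcripts, at chr9:78480535-78480654 and chr2:181155287-181155406, both on the minus strand. Capitals mark the bases that differ between the genes, here and in the next pair.
Eef1a1: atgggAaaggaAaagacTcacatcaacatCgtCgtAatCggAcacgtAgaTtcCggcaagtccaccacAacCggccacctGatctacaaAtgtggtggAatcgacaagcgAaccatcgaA
Eef1a2: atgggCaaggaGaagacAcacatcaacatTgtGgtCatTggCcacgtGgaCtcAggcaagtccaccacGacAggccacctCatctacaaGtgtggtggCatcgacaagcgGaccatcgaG

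The end of the coding sequence, in exon 8 of both transcripts, is shown because it is the coding part nearest to the polyadenylated end from which such libraries are primed, and because the proteins part there. It covers chr9:78478734-78478850 for Eef1a1 and chr2:181147979-181148098 for Eef1a2, both on the minus strand.
Eef1a1: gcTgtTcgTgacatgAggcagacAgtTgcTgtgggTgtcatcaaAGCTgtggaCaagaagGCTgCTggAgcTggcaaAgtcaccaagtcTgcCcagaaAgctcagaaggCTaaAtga
Eef1a2: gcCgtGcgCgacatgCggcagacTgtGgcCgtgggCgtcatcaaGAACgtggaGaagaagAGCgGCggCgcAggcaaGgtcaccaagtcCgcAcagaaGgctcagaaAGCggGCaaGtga
The longest run of bases shared by both genes was 23 in the coding sequences and 7 in the 3′ untranslated regions, which are 285 bases long in Eef1a1 and 326 in Eef1a2. Transcripts of other annotated genes matched Eef1a1 at 90% identity or more over at least 200 bases in 18 cases. Eef1g had 5 such copies, Eef2 had 3, Eef1d had 2, Eef1b2 had 1 and Eef1a2 had 0. The copies had 0 columns in the tables, and how reads that match several places were counted is not given in the sources used here, so the levels of all members but Eef1a2 are uncertain to that extent.

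The other members lie at chr1:63176825-63180486 (Eef1b2, plus strand), chr15:75894205-75909556 (Eef1d, minus strand), chr19:8967041-8978479 (Eef1g, plus strand) and chr10:81176631-81182498 (Eef2, plus strand). Levels are given as CPM, the UMIs of a gene per 1000000 UMIs summed over the cells of a class. A UMI stands for 1 molecule whatever the length of its transcript, so CPM of the isoforms were compared directly.

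The FGF21 library held 2455 barcodes with 14585503 UMIs and the vehicle library 2925 barcodes with 11130580 UMIs. After filtering, 1935 FGF21 cells with a median of 6838 UMIs and 2337 vehicle cells with a median of 4232 UMIs were used, and 12 cell indices occurred in both libraries. Cells fell into 13 marker-defined classes, named with "-like" since marker genes alone define them. Microglia-like cells (886 in the FGF21 and 1410 in the vehicle library), oligodendrocyte precursor-like cells (586 and 373) and astrocyte-like cells (192 and 99) reached 50 cells in both libraries and could be compared. The libraries stood apart within classes: 97.2% of FGF21 and 0.709% of vehicle microglia-like cells lay in 1 cluster, and 85.2% of FGF21 and 5.90% of vehicle oligodendrocyte precursor-like cells in another. RNA of other cells was estimated in the 3 compared classes and in mural-like and oligodendrocyte-like cells from marker genes of other classes, with a median of 31.8% of the FGF21 and 26.8% of the vehicle library's average profile (range over 13 pairs of class and marker list 22.6% to 39.2% and 19.9% to 47.8%).

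Eef1a1, the general isoform, had UMIs in every class of both libraries, with its highest levels in lymphocyte and natural killer-like and choroid plexus-like cells and its lowest in astrocyte-like and erythroid-like cells. In the FGF21 library it ran from 530 CPM in erythroid-like cells over a class median of 1455 CPM to 4032 CPM in lymphocyte and natural killer-like cells. In the vehicle library it ran from 328 CPM in erythroid-like cells over a median of 1402 CPM to 3737 CPM in choroid plexus-like cells. The estimated background would give 97.1% of the FGF21 and 113% of the vehicle Eef1a1 UMIs of erythroid-like cells. The lower ends therefore show no Eef1a1 expression apart from background. Microglia-like cells had 2239 CPM of Eef1a1 in the FGF21 and 1532 CPM in the vehicle library. Oligodendrocyte precursor-like cells had 1118 CPM and 955 CPM, and astrocyte-like cells 642 CPM and 543 CPM, in the FGF21 and the vehicle library in that order. Eef1a1 was thus 3.49 times as high in microglia-like as in astrocyte-like cells in the FGF21 library (interval 3.24 to 3.76), and 2.82 times in the vehicle library (2.47 to 3.24). In astrocyte-like cells the estimated background would give 80.2% of the FGF21 and 68.0% of the vehicle Eef1a1 UMIs. In microglia-like cells it would give 23.0% and 24.1%. With background subtracted, microglia-like cells had 1725 and 1163 CPM and astrocyte-like cells 127 and 174 CPM, so these classes lay further apart.

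Along the oligodendrocyte lineage Eef1a1 was highest at the committed stage. Committed oligodendrocyte precursor-like cells had 1669 CPM in the FGF21 and 1627 CPM in the vehicle library. Oligodendrocyte-like cells had 1455 CPM and 1402 CPM in these libraries. The ratio of precursor-like to committed cells was 0.670 (0.628 to 0.714) in the FGF21 and 0.587 (0.540 to 0.639) in the vehicle library, and that of committed to oligodendrocyte-like cells was 1.15 (1.06 to 1.25) and 1.16 (1.03 to 1.32). When the 13 classes were ordered by Eef1a1, 5 of 12 neighbouring pairs in the FGF21 library and 4 of 12 in the vehicle library differed beyond counting error. Oligodendrocyte precursor-like against astrocyte-like cells was such a pair in both (1.74 with an interval of 1.62 to 1.88, and 1.76 with 1.53 to 2.03). No background was subtracted in this order. The middle of the order, with mural-like, fibroblast-like and endothelial-like cells, could not be ranked.

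**Figure D1:**
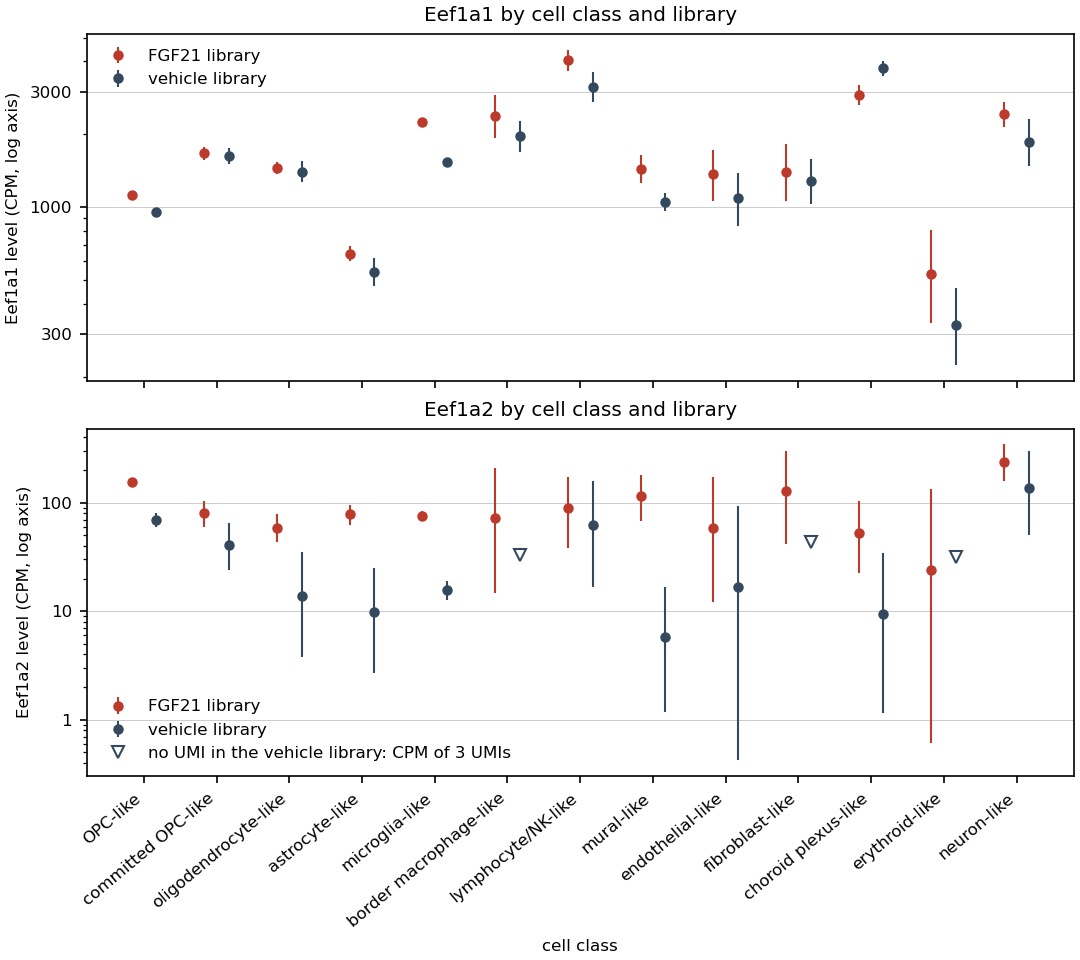
Levels of Eef1a1 (top) and Eef1a2 (bottom) in CPM on log axes, in the 13 cell classes (x axis), with the FGF21 library in red left of the vehicle library in dark blue. Points are class sums over cells, bars are exact 95% Poisson intervals for counting error, and open triangles mark the CPM that 3 UMIs would give where the vehicle library had no Eef1a2 UMI. Eef1a1 lay between 328 and 4032 CPM and Eef1a2 between 0 and 239 CPM. OPC stands for oligodendrocyte precursor and NK for natural killer.

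Eef1a2, the neuronal and muscle isoform, was lower than Eef1a1 in every class and library, and was highest in neuron-like and, among glia, in oligodendrocyte precursor-like cells. Neuron-like cells had 239 CPM (159 to 346) in the FGF21 and 138 CPM in the vehicle library. These values rest on few cells: 28 UMIs in 5 of 21 FGF21 cells, and 6 UMIs in 1 of 15 vehicle cells. Oligodendrocyte precursor-like cells had 154 CPM (143 to 165) in the FGF21 and 69.2 CPM (59.2 to 80.3) in the vehicle library, from 802 and 171 UMIs. The neuron-like cluster was led by Islr2, Igfbpl1, Nefl and Hpca, and its median depth was 0.30 of that of the libraries.

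Microglia-like cells had 76.2 CPM of Eef1a2 (69.1 to 83.9) in the FGF21 and 15.6 CPM (12.6 to 19.2) in the vehicle library. Astrocyte-like cells had 78.0 CPM (63.0 to 95.4) in the FGF21 and 9.83 CPM (2.68 to 25.2) in the vehicle library, where only 4 UMIs were counted. Oligodendrocyte precursor-like cells exceeded microglia-like cells 2.02-fold in the FGF21 (1.79 to 2.28) and 4.42-fold in the vehicle library (3.41 to 5.77). They exceeded astrocyte-like cells 1.97-fold (1.59 to 2.47) and 7.04-fold (2.70 to 26.1) in the same libraries. Microglia-like and astrocyte-like cells were not told apart by Eef1a2 in either library (ratio 0.978 with 0.780 to 1.24 in the FGF21, and 1.59 with 0.601 to 5.96 in the vehicle library).

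Within the oligodendrocyte lineage Eef1a2 ran opposite to Eef1a1 between the first stages. The ratio of precursor-like to committed precursor-like cells was 1.92 (1.46 to 2.58) in the FGF21 and 1.69 (1.04 to 2.92) in the vehicle library. Committed cells had 80.0 CPM and 40.9 CPM, and oligodendrocyte-like cells 59.1 CPM and 13.8 CPM, in the FGF21 and the vehicle library. Of the smaller classes, mural-like cells had 115 CPM in the FGF21 library from 18 UMIs and 5.75 CPM in the vehicle library from 3 UMIs. Border macrophage-like, fibroblast-like and erythroid-like cells had 3, 5 and 1 Eef1a2 UMIs in the FGF21 library and 0 in the vehicle library, where 3 UMIs would have given 33.0, 43.3 and 31.7 CPM. In the order of Eef1a2 levels, 1 of 12 neighbouring pairs differed beyond counting error in the FGF21 library and 0 of 12 in the vehicle library. The pair was neuron-like over oligodendrocyte precursor-like cells (1.56, interval 1.03 to 2.27). Its 28 neuron-like UMIs came from 5 cells, 1 of which held 11, and the interval does not cover such differences between cells.

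The Eef1a2 share of Eef1a UMIs, which does not depend on the class total, separated oligodendrocyte precursor-like cells from the other abundant classes in the vehicle library. It was 12.1% in the FGF21 (11.3% to 12.9%) and 6.75% in the vehicle library (5.81% to 7.80%) in oligodendrocyte precursor-like cells. In astrocyte-like cells it was 10.8% (8.84% to 13.1%) in the FGF21 and 1.78% (0.487% to 4.49%) in the vehicle library. With the median background estimate subtracted, the astrocyte-like share was 25.8% in the FGF21 and 1.22% in the vehicle library. Oligodendrocyte precursor-like cells then had 16.6% and 9.49%, so the order of these classes turned in the FGF21 library. In FGF21 astrocyte-like cells the subtraction left 127 of 642 CPM of Eef1a1. Background estimates from these cells ran from 27.1% to 39.2%, where 31.8% was subtracted. The turned order was not tested over that range. Without subtraction, the share in microglia-like cells was 3.29% (2.99% to 3.62%) in the FGF21 and 1.01% (0.815% to 1.24%) in the vehicle library. In neuron-like cells, too, Eef1a1 made up most of the Eef1a UMIs, with Eef1a2 shares of 8.97% (6.05% to 12.7%) in the FGF21 and 6.90% (2.57% to 14.4%) in the vehicle library. Whether these few cells were mature neurons was not tested. Their cluster's leading genes included Stmn2, Bcl11a and Cd24a, and also Rbfox3, Nefl, Hpca and Syt5. The neuron marker Slc17a7 had 0 UMIs in both libraries. Gad1 had 67 and 4 UMIs, Gad2 41 and 14, and Slc32a1 19 and 5, in the FGF21 and the vehicle library.

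The share was higher in the FGF21 than in the vehicle library in 13 of 13 classes, 3 of which had no Eef1a2 UMI in the vehicle library. Of the 10 classes where an odds ratio could be formed, 7 had an interval above 1 and 0 had one below 1. These counts are descriptions, because they rest on the UMIs that led to the choice of Eef1a2. Nor are the classes independent, since all classes of a library share its free RNA. The average Eef1a2 level of all used cells was 106 CPM in the FGF21 and 28.7 CPM in the vehicle library. The odds ratio was 1.9 (1.60 to 2.27) in oligodendrocyte precursor-like, 6.70 (2.49 to 25.4) in astrocyte-like and 3.33 (2.65 to 4.24) in microglia-like cells. Over all used cells the share was 6.14% in the FGF21 and 2.04% in the vehicle library (odds ratio 3.14, 2.77 to 3.57). This pooled value also carries the class make-up, since oligodendrocyte precursor-like cells were 30.3% of used FGF21 and 16.0% of used vehicle cells. Neuron-like cells, with an odds ratio of 1.33 (0.517 to 4.07), and lymphocyte and natural killer-like cells, with 1.12 (0.294 to 5.12), had wide intervals that include 1.

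**Figure D2:**
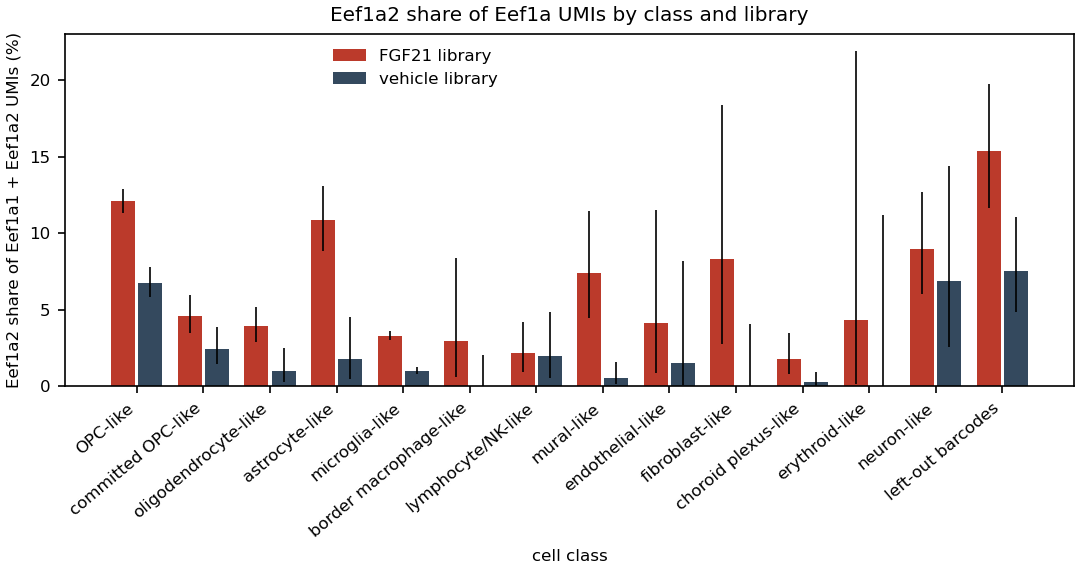
Share of Eef1a2 among the summed Eef1a1 and Eef1a2 UMIs, in percent, by cell class, with the FGF21 library (red) left of the vehicle library (dark blue). Bars start at 0, lines are exact 95% binomial intervals, and the last pair shows barcodes left out by the quality filter, with 15.4% in the FGF21 and 7.52% in the vehicle library. OPC stands for oligodendrocyte precursor and NK for natural killer.

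The difference in Eef1a2 was spread over many cells and was also seen when all cells were brought to one depth. Without correction for depth, an Eef1a2 UMI was found in 35.3% of FGF21 and 5.96% of vehicle microglia-like cells, at median depths of 6024 and 4181 UMIs. When each cell was thinned to 2000 UMIs, the shares were 14.6% (12.3% to 17.1%, 865 cells) in the FGF21 and 2.83% (2.01% to 3.86%, 1345 cells) in the vehicle library. Thinning left out 21 FGF21 and 65 vehicle cells of this class as too shallow. In oligodendrocyte precursor-like cells the thinned shares were 22.5% (19.2% to 26.1%) and 10.0% (7.16% to 13.6%), and in astrocyte-like cells 15.9% (10.6% to 22.4%) and 2.60% (0.316% to 9.07%), in the FGF21 and the vehicle library. No cell of these 3 classes held more than 9 Eef1a2 UMIs, a value reached in FGF21 oligodendrocyte precursor-like cells. Eef1a1 at the same depth was found in 96.4% of FGF21 and 91.5% of vehicle microglia-like cells. Free RNA also gives UMIs to cells that do not express a gene: erythroid-like cells, a type not known for Eef1a2, had an Eef1a2 UMI in 1 of 20 FGF21 cells (5%, 0.127% to 24.9%) and in 0 of 46 vehicle cells (up to 7.71%) before thinning, at median depths of 2256 and 1989 UMIs.

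Eef1a2 was the member that differed most between the libraries in each compared class, and Eef1a1 differed less. The Eef1a2 ratio of the FGF21 to the vehicle library was 2.22 (1.88 to 2.64) in oligodendrocyte precursor-like, 7.93 (3.00 to 29.7) in astrocyte-like and 4.88 (3.88 to 6.18) in microglia-like cells. The Eef1a1 ratio was 1.17 (1.12 to 1.23), 1.18 (1.02 to 1.38) and 1.46 (1.42 to 1.5) in the same order of classes. With a change of at least 1.5-fold as the limit, 1 of 6 members was higher in the FGF21 library and 0 were lower in each class, and the member was Eef1a2. Among all genes with at least 50 UMIs, 5.81% were that much higher and 4.88% lower in oligodendrocyte precursor-like cells (11482 genes), 10.7% and 8.50% in astrocyte-like cells (6128 genes), and 12% and 5.07% in microglia-like cells (11361 genes). Counted from the highest ratio, Eef1a2 stood at place 98 in oligodendrocyte precursor-like, place 3 in astrocyte-like and place 6 in microglia-like cells. Because these ratios led to the choice of the gene, nothing is read from the places.

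The astrocyte-like value of Eef1a2 was the least certain, since 94 FGF21 UMIs stood against 4 vehicle UMIs. It was 4.15 with coarser clusters (Leiden resolution 0.5) and 20.7 with the estimated background subtracted. In microglia-like cells the ratio lay between 4.16 and 5.36, and in oligodendrocyte precursor-like cells between 1.96 and 2.33, over the alternatives tried. The ratios between the libraries went with GC content: over 10 equal groups of genes ordered by transcript GC, the median log2 ratio ran from -0.12 in the lowest to 0.23 in the highest group in microglia-like cells. Eef1a2, at 60.6% GC, stood in the highest group, and its ratio set against the median of that group was 4.16 in microglia-like, 6.97 in astrocyte-like and 2.07 in oligodendrocyte precursor-like cells. The part of GC content in the difference was not tested further.

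**Figure D3:**
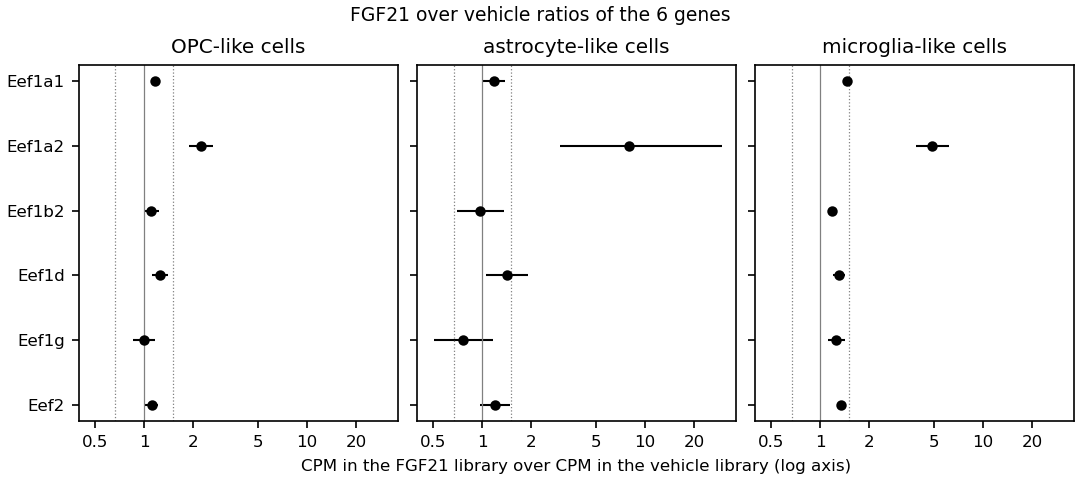
Ratio of the CPM in the FGF21 library to that in the vehicle library (x axis, log scale) for the 6 genes (y axis) in oligodendrocyte precursor-like (OPC), astrocyte-like and microglia-like cells. Points are ratios, bars exact 95% intervals for counting error, the solid line marks 1 and the dotted lines 1.5-fold in either direction. Eef1a2 lies at 2.22, 7.93 and 4.88, and the other 5 genes lie between 0.762 and 1.46.

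Outside the compared classes the Eef1a2 interval lay above 1 in 5 others, fibroblast-like cells with 0 vehicle UMIs among them. Counting all 13 classes, it lay above 1 in 8 and included 1 in 5. Eef1a1 had an interval above 1 in 6 of 13 classes and below 1 in 1, the choroid plexus-like cells, with 2899 CPM in the FGF21 and 3737 CPM in the vehicle library (ratio 0.776, 0.689 to 0.873). In absolute terms the FGF21 library had 60.6 CPM more Eef1a2 in microglia-like, 68.1 CPM more in astrocyte-like and 84.7 CPM more in oligodendrocyte precursor-like cells. The excess was 45.3 CPM in oligodendrocyte-like, 42.9 CPM in choroid plexus-like and 109 CPM in mural-like cells.

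Since Eef1a2 is a neuronal gene, its UMIs were set beside those of 12 neuron markers, among them Snap25, Syt1, Rbfox3 and Gad1. Neuron-like cells had 6194 CPM of the markers in the FGF21 and 4729 CPM in the vehicle library. Microglia-like cells had 169 CPM and 125 CPM, astrocyte-like cells 151 CPM and 130 CPM, and oligodendrocyte precursor-like cells 537 CPM and 542 CPM, in the FGF21 and the vehicle library. In oligodendrocyte precursor-like cells Snhg11 gave 239 and 248 CPM, Snap25 93.0 and 84.5 CPM and Gad1 79.6 and 86.5 CPM. There Gad2, Slc32a1, Stmn2, Nefl and Slc17a7 each gave at most 2.11 CPM in the FGF21 and 3.24 CPM in the vehicle library. The sum is therefore no measure of neuronal RNA in that class. In microglia-like cells Snhg11 gave 424 of 934 FGF21 and 314 of 725 vehicle marker UMIs. Single markers moved unequally in this class: Syt1 had 10.5 CPM in the FGF21 and 3.61 CPM in the vehicle library, from 58 and 21 UMIs. Snap25, Snhg11, Nrgn, Gad1, Gad2, Slc32a1 and Nefl were also higher in the FGF21 library. Rbfox3 (6.88 against 8.08 CPM), Stmn2, Slc17a7 and Celf4 were lower there. No intervals were formed for single markers. Of the 12 markers, 0 were at 0 in microglia-like cells of either library, and 0 in the FGF21 and 3 in the vehicle library were at 0 in astrocyte-like cells. Over the 10 classes other than neuron-like cells and both precursor classes, the marker sums overlapped between the libraries, with 118 to 1147 CPM in the FGF21 and 92.8 to 1039 CPM in the vehicle library. Fibroblast-like cells set the upper end in both libraries, almost wholly through Snhg11, which gave 41 of 45 FGF21 and 67 of 72 vehicle marker UMIs, while 8 and 7 of the 12 markers were at 0 in these libraries.

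Eef1a2 did not keep one proportion to these markers across classes, and the markers that led the sum also differed between classes. Per 100 neuron marker UMIs there were 3.86 Eef1a2 UMIs (2.55 to 5.63) in FGF21 and 2.91 (1.06 to 6.45) in vehicle neuron-like cells. There were 45.1 (40.1 to 50.6) in FGF21 and 12.6 (9.98 to 15.6) in vehicle microglia-like cells, and 28.7 (26.5 to 31.0) and 12.8 (10.8 to 15.0) in oligodendrocyte precursor-like cells. Astrocyte-like cells had 51.7 (39.8 to 66.6) in the FGF21 and 7.55 (1.98 to 20.5) in the vehicle library. The barcodes left out by the filter, whose median mitochondrial share was 42.2% in the FGF21 and 42.6% in the vehicle library, had 14.9 (10.8 to 20.1) and 4.53 (2.84 to 6.87). Their own Eef1a2 level was 138 CPM (102 to 181) in the FGF21 and 50.7 CPM (32.2 to 76.1) in the vehicle library.

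**Figure D4:**
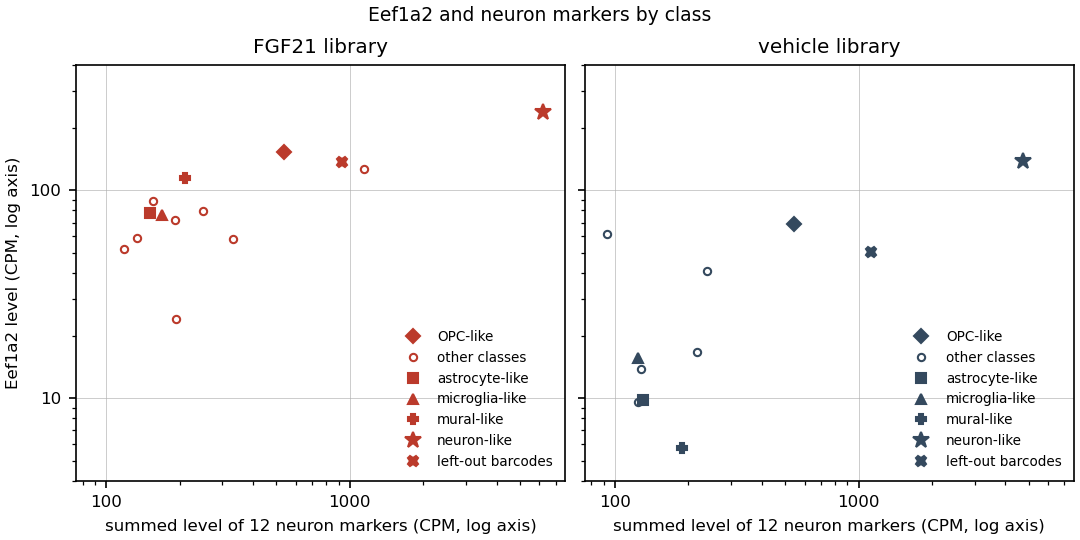
Eef1a2 level (y axis) against the summed level of 12 neuron markers (x axis), both in CPM on log axes, for each class and for the left-out barcodes, with the FGF21 library on the left and the vehicle library on the right. Classes without an Eef1a2 UMI are not drawn. Microglia-like cells lie at 169 CPM of markers and 76.2 CPM of Eef1a2 in the FGF21 library, against 125 and 15.6 CPM in the vehicle library, and oligodendrocyte precursor-like (OPC) cells at 537 and 154 CPM against 542 and 69.2 CPM. Snhg11 gave the most marker UMIs in both of these classes.

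The estimated background would give 44.2% of the FGF21 and 49.2% of the vehicle Eef1a2 UMIs of microglia-like cells, and 21.9% and 11.1% of those of oligodendrocyte precursor-like cells. In astrocyte-like cells it would give 43.2% of the FGF21 and 78.2% of the vehicle UMIs. After subtraction the ratio of the FGF21 to the vehicle library was 5.36 in microglia-like and 1.96 in oligodendrocyte precursor-like cells. The part of free RNA in the Eef1a2 difference was not tested beyond this. Within clusters the values were as follows. In the cluster that held most FGF21 microglia-like cells, the Eef1a2 share was 3.28% (2.98% to 3.61%) in 861 FGF21 cells and 2.70% (0.329% to 9.42%) in 10 vehicle cells. In the cluster that held most vehicle cells it was 4.63% (1.52% to 10.5%) in 25 FGF21 cells and 0.997% (0.801% to 1.23%) in 1400 vehicle cells. Of the 3 oligodendrocyte precursor-like clusters, the one with most vehicle cells had a share of 13.5% (10.4% to 17.1%) in 77 FGF21 cells and 7.09% (6.08% to 8.21%) in 348 vehicle cells. The one with most FGF21 cells had 12.3% (11.5% to 13.2%) in 499 FGF21 cells and 2.98% (0.973% to 6.81%) in 22 vehicle cells. The cluster led by mitotic genes had 3.42% (1.38% to 6.91%) in 10 FGF21 cells and 3.92% (0.479% to 13.5%) in 3 vehicle cells. With 7 and 2 Eef1a2 UMIs, the libraries were not told apart in this cluster.

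The eEF1B subunits showed class patterns of their own. Eef1b2, which exchanges the nucleotide on eEF1A, followed Eef1a1: it had 387 CPM in the FGF21 and 327 CPM in the vehicle library in microglia-like cells, 214 CPM and 193 CPM in oligodendrocyte precursor-like cells, and 122 CPM and 125 CPM in astrocyte-like cells. The ratio of microglia-like to astrocyte-like cells was 3.17 (2.68 to 3.77) in the FGF21 and 2.61 (1.97 to 3.51) in the vehicle library, with no background subtracted. In astrocyte-like cells the estimated background would give 73.9% of the FGF21 and 59.2% of the vehicle Eef1b2 UMIs. In microglia-like cells it would give 23.3% and 22.7%. The highest Eef1b2 level was in lymphocyte and natural killer-like cells, with 665 CPM in the FGF21 and 959 CPM in the vehicle library. Between the libraries its ratio was 1.18 (1.11 to 1.26) in microglia-like, 1.11 (0.993 to 1.23) in oligodendrocyte precursor-like and 0.973 (0.703 to 1.37) in astrocyte-like cells, the last being 0.623 with background subtracted.

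Eef1d, the other exchange factor, was the most even of the 6 members over the classes in the vehicle library. It ran from 102 to 312 CPM in the FGF21 library, a span of 3.06-fold, and from 84.5 to 232 CPM in the vehicle library, a span of 2.74-fold. Its microglia-like to astrocyte-like ratio was 1.16 (1.02 to 1.34) in the FGF21 and 1.26 (0.971 to 1.67) in the vehicle library. In the order of Eef1d levels 0 of 12 neighbouring classes differed beyond counting error in either library. Its ratio between the libraries was 1.30 (1.20 to 1.41) in microglia-like, 1.25 (1.11 to 1.40) in oligodendrocyte precursor-like and 1.41 (1.06 to 1.91) in astrocyte-like cells.

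Eef1g, the scaffold subunit, was the least abundant of the 3 eEF1B genes in the compared classes. Microglia-like cells had 111 CPM in the FGF21 and 88.2 CPM in the vehicle library, and oligodendrocyte precursor-like cells had 94.9 CPM and 95.1 CPM. Its ratio was 1.25 (1.11 to 1.41) in microglia-like cells, and the intervals included 1 in oligodendrocyte precursor-like (0.999, 0.854 to 1.17) and astrocyte-like cells (0.762, 0.506 to 1.17). Choroid plexus-like cells stood high in both libraries, with 203 CPM in the FGF21 and 248 CPM in the vehicle library.

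As a result the make-up of the eEF1B UMIs differed between classes. Eef1d gave 52.2% (47.6% to 56.8%) of them in FGF21 and 40.7% (32.6% to 49.2%) in vehicle astrocyte-like cells, and 32.4% (31.0% to 33.9%) and 30.6% (29.1% to 32.2%) in microglia-like cells. Eef1b2 gave 31.1% (26.9% to 35.5%) and 35.2% (27.4% to 43.5%) in astrocyte-like cells, against 52.6% (51.0% to 54.1%) and 54.6% (53.0% to 56.3%) in microglia-like cells, in the FGF21 and the vehicle library. Oligodendrocyte precursor-like cells lay between, with Eef1b2 at 40.9% and 42.0%. The number of Eef1a UMIs per eEF1B UMI was 3.15 (3.04 to 3.26) in FGF21 and 2.59 (2.49 to 2.69) in vehicle microglia-like cells. It was 1.84 (1.64 to 2.06) and 1.55 (1.25 to 1.93) in astrocyte-like cells. None of these values had background subtracted. In astrocyte-like cells the background would give 73.9% of the FGF21 and 59.2% of the vehicle Eef1b2 UMIs, against 34.8% and 32.2% of the Eef1d UMIs.

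Eef2, the translocation factor, varied less over the abundant classes than Eef1a1. It had 459 CPM in FGF21 and 342 CPM in vehicle microglia-like cells, 318 CPM and 286 CPM in oligodendrocyte precursor-like cells, and 328 CPM and 275 CPM in astrocyte-like cells. Its ratio between the libraries was 1.34 (1.27 to 1.42) in microglia-like, 1.11 (1.02 to 1.22) in oligodendrocyte precursor-like and 1.19 (0.963 to 1.48) in astrocyte-like cells. It was 0.987 in oligodendrocyte precursor-like cells with background subtracted. In committed precursor-like cells it was 1.45 (1.19 to 1.78), from 468 CPM in the FGF21 and 323 CPM in the vehicle library. With no background subtracted, the Eef1a UMIs per Eef2 UMI were 5.05 (4.83 to 5.27) in FGF21 and 4.52 (4.31 to 4.75) in vehicle microglia-like cells, and 2.20 (1.95 to 2.48) and 2.01 (1.60 to 2.54) in astrocyte-like cells.

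**Figure D5:**
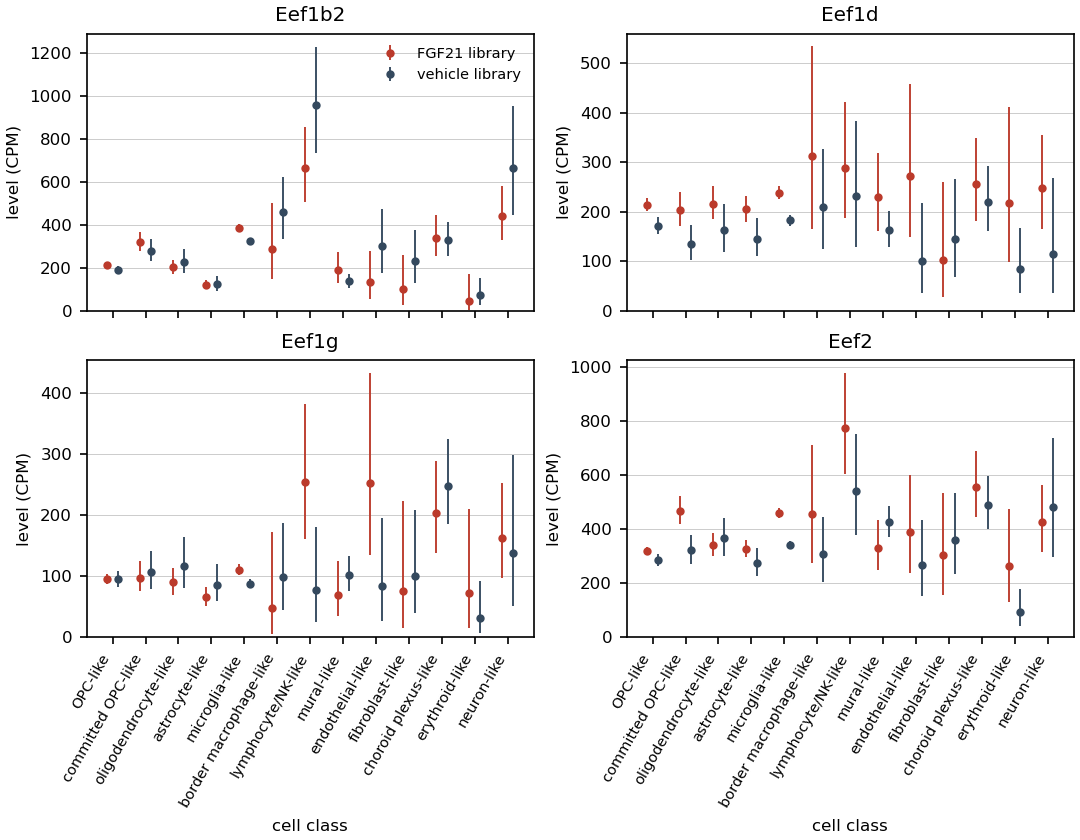
Levels of Eef1b2, Eef1d, Eef1g and Eef2 in CPM (y axes starting at 0) in the 13 cell classes (x axes), with the FGF21 library in red left of the vehicle library in dark blue. Points are class sums and bars exact 95% Poisson intervals. Eef1b2 is highest in lymphocyte and natural killer-like (NK) cells, at 665 CPM in the FGF21 and 959 CPM in the vehicle library, and Eef1d stays between 84.5 and 312 CPM. OPC stands for oligodendrocyte precursor.

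In microglia-like cells the log2 ratios of the 5 members other than Eef1a2 ran from 0.24 to 0.55, against a median of 0.03 over all 11361 genes. The medians of the GC groups that hold these 5 members ran from -0.03 to 0.14 there. In oligodendrocyte precursor-like cells the log2 ratios of the 5 members ran from -0.00 to 0.32 and in astrocyte-like cells from -0.40 to 0.49, where the medians of all genes were -0.01 and -0.00. Eef1a1 in astrocyte-like cells was 0.733 with background subtracted, where the background would give 80.2% of its FGF21 and 68.0% of its vehicle UMIs.

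Other genes of translation were described by 6 lists of 188 genes with a column, none of them a member, of which 180 passed the minimum of 50 UMIs in oligodendrocyte precursor-like, 141 in astrocyte-like and 182 in microglia-like cells. For ribosomal proteins the median log2 ratio was 0.43 in microglia-like cells (15 of 81 at least 1.5-fold higher, 0 lower), 0.27 in oligodendrocyte precursor-like cells (7 of 81 higher, and Rpl13a and Rpl36al, 2 genes, lower) and 0.34 in astrocyte-like cells (18 of 77 higher, and 1, Rpl7a, lower). Rps29 had 1733 CPM in FGF21 and 1333 CPM in vehicle microglia-like cells (ratio 1.30, 1.26 to 1.34), and Rpl13 had 832 CPM and 598 CPM (1.39, 1.33 to 1.45). In oligodendrocyte precursor-like cells Rpl13 had 1087 CPM in the FGF21 and 1086 CPM in the vehicle library (ratio 1.00, 0.956 to 1.05). Over all lists 11.5% of genes were at least 1.5-fold higher in microglia-like cells, beside 12% of all genes. The share was 17% in astrocyte-like cells, beside 10.7% of all genes, and 5% in oligodendrocyte precursor-like cells, beside 5.81%.

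Initiation factors, which bring the ribosome to the start codon, had a median log2 ratio of 0.19 in microglia-like cells, with 1 of 40 genes, Eif3f, at least 1.5-fold higher and 0 lower. Eif4g2 had 399 CPM in FGF21 and 392 CPM in vehicle microglia-like cells (1.02, 0.962 to 1.08). Eif1 had 385 CPM and 340 CPM (1.13, 1.06 to 1.20), and the helicase gene Eif4a2 had 314 CPM and 389 CPM (0.806, 0.756 to 0.858). Aminoacyl-tRNA synthetases, which load tRNAs, had a median of 0.23 there, with 1 of 23, Wars, higher and 0 lower. Of these, Eprs (1.30, 1.16 to 1.45) and Sars (1.30, 1.15 to 1.46) were higher and Nars (0.942, 0.872 to 1.02) was not told apart from 1. Among all genes of microglia-like cells, 12% were at least 1.5-fold higher and 5.07% lower, so nothing is read from the counts of these 2 lists.

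Genes that regulate the elongation factors had a median log2 ratio of 0.30 in microglia-like cells, with 2 of 15 at least 1.5-fold higher (Mettl13 and Dph7) and 0 lower. Among all genes 12% were that much higher and 5.07% lower in these cells, so nothing is read from the list counts in this paragraph. The regulators' median was 0.01 in oligodendrocyte precursor-like cells (14 genes) and 0.26 in astrocyte-like cells (4 genes). Eef2k, whose kinase inhibits eEF2 by phosphorylation, had 156 CPM in FGF21 and 177 CPM in vehicle microglia-like cells (0.882, 0.805 to 0.966). It had 55.2 and 68.8 CPM in oligodendrocyte precursor-like cells (0.803, 0.662 to 0.977). In astrocyte-like cells its interval included 1 (0.987, 0.625 to 1.605). Tpt1, which binds eEF1A and slows its nucleotide exchange, had 1293 and 987 CPM in microglia-like cells (1.31, 1.27 to 1.36). Dph6, of the pathway that builds the diphthamide residue of eEF2, had 55.1 and 37.6 CPM in microglia-like cells (1.46, 1.23 to 1.75). Other elongation, termination and rescue factors had a median of -0.03 there, with 1 of 13, Eefsec, higher and 0 lower. Among them Abcf1 (1.07, 0.959 to 1.19) and Gspt1 (0.970, 0.877 to 1.07), a release factor gene, were not told apart from 1. Mitochondrial translation factors had a median of -0.03, with 1 of 10 higher (Mtrf1) and 1 lower (Mrrf). Of these, Guf1 had a ratio of 1.37 (1.08 to 1.74), while the intervals of Mtif2 (0.964, 0.831 to 1.12) and Gfm2 (0.860, 0.694 to 1.07) included 1. Eif5a, which helps the ribosome through difficult peptide bonds, had 298 CPM in FGF21 and 243 CPM in vehicle microglia-like cells (1.23, 1.14 to 1.32).

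The genes whose pattern was most like that of Eef1a2 were sought over 26 points, the 13 classes in each library, by Pearson correlation of log2 CPM with a pseudocount of 10 among 11120 genes with at least 200 UMIs. The points share libraries and cluster definitions, so the coefficients are descriptions. The points also hold the difference between the libraries for which Eef1a2 was chosen, so nothing is read from that difference in the genes found. The first 8 were Rnf208 (0.85), Pdxp (0.82), Pianp (0.79), Lmtk3 (0.77), Gng3 (0.77), Gatd1 (0.76), Stmn3 (0.75) and Apc2 (0.74). Gng3 encodes a G protein gamma subunit and Stmn3 a stathmin that binds tubulin. In microglia-like cells Gng3 had 88.6 CPM in the FGF21 and 26.1 CPM in the vehicle library, and Rnf208 had 13.6 and 6.36 CPM. In oligodendrocyte precursor-like cells Gng3 had 452 CPM in the FGF21 and 326 CPM in the vehicle library, and Rnf208 had 67.1 and 44.9 CPM. Lmtk3, with 145 and 141 CPM, and Stmn3, with 184.5 and 174.3 CPM, differed less in these cells. Eef1a1 had a correlation of only 0.34 with Eef1a2 over the same points.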

How the data were processed

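Cells of the basolateral amygdala, pooled from 3 mice per treatment, were measured by BD Rhapsody whole transcriptome sequencing, per the labels' protocols. All results start from deposited counts of molecules (UMIs) for each gene in each cell, from version 1.9.1 of the BD WTA Rhapsody Analysis Pipeline on genome build GRCm38, per the submitters' processing notes. Neither the annotation nor the treatment of reads matching several genes is given in the sources used here. Genes missing from 1 table were set to 0 in it.

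Barcodes under 500 UMIs, under 300 genes or over 25% mitochondrial UMIs were left out, which kept 1951 FGF21 and 2354 vehicle cells. Scrublet in scanpy 1.11.5 marked 16 and 17 of them as doublets (0.767%), and these were dropped. Both libraries were clustered together on 2000 variable genes without the 6 members and the translation lists, with 30 principal components, 15 neighbours and Leiden resolution 1.0. A cluster was named when its best marker score exceeded the next by 0.5, with at least 3 markers in 10% of its cells. UMIs were summed per class and library. Ratios have exact conditional-binomial, shares exact Clopper-Pearson and levels exact Poisson 95% intervals, which cover counting error only, since PCR and the pooling of mice add error that 1 library cannot show. A pseudocount of 0.5 UMIs entered the log2 ratios. No p-value was computed, because cells are not replicates of a treatment. The ratio step was tested on simulated counts.

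The background profile was that of all used cells of a library, scaled by the median share over 13 pairs of a class and another class's marker list. GENCODE vM21 gave positions and sequences, and blastn 2.17.0 the copies. Members and gene lists were chosen with earlier results of these data known. Named genes were the 6 members, the 3 genes with the most UMIs of each list and the 8 genes most like Eef1a2. Other list genes named as past 1.5-fold were chosen after their values were seen. Of the genes that this rule names, 1 is not reported here.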

Additional observations from a re-analysis of the deposited data

Results flagged for a closer look

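Of the 13 classes, only choroid plexus-like cells had an Eef1a1 interval below 1, while 6 had one above 1 and 6 one that included 1. The Eef1a1 ratio of the FGF21 to the vehicle library was 0.776 (0.689 to 0.873) there and 1.46 in microglia-like cells. With background subtracted, it was also below 1 in astrocyte-like (0.733), committed precursor-like (0.918), oligodendrocyte-like (0.911) and fibroblast-like cells (0.969). The choroid plexus-like class held 16 FGF21 and 28 vehicle cells. Without its cell with the most Eef1a1 UMIs in each library (71 and 99 UMIs) the ratio was 0.743 (0.653 to 0.844). The median mitochondrial share of these cells was 7.73% in the FGF21 and 2.07% in the vehicle library. The difference between the classes was not tested, since there was 1 library per treatment.

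The barcodes that the quality filter left out, which enter no class, held a higher Eef1a2 share of Eef1a UMIs in the FGF21 library. It was 15.4% (11.6% to 19.8%, 50 of 325 UMIs) in the FGF21 and 7.52% (4.82% to 11.1%, 23 of 306 UMIs) in the vehicle library.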

How the results depend on the processing

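No paired analysis was possible because each treatment had 1 library, and for the same reason no library could be left out. Adding pseudogene columns was not run, since the tables held 0 such columns. No ratio of Eef1a2 changed its side of 1 under an alternative that gave a value. With the estimated background subtracted, the Eef1a2 share was 16.6% in FGF21 and 9.49% in vehicle oligodendrocyte precursor-like cells, 25.8% in FGF21 and 1.22% in vehicle astrocyte-like cells, and 2.41% in FGF21 and 0.679% in vehicle microglia-like cells. Of the 6 members in astrocyte-like cells, the mean of per-cell CPM put 2 at least 1.5-fold higher in the FGF21 library. Thinning to 2000 UMIs put 0 there, since its random draw held 21 FGF21 and 0 vehicle Eef1a2 UMIs and gave no ratio; the separate draw behind the shares of cells left an Eef1a2 UMI in 2 of 77 vehicle cells. Background subtraction put 2 lower (Eef1b2 at 0.623 and Eef1g at 0.550). Of the translation list genes, a limit of 2-fold left 0 higher and 0 lower in oligodendrocyte precursor-like cells (9 and 4 at 1.5-fold), 11 and 1 in astrocyte-like cells (24 and 4) and 2 and 0 in microglia-like cells (21 and 1). A minimum of 100 UMIs left 2 lower in oligodendrocyte precursor-like and 1 lower in astrocyte-like cells. Background subtraction put 18 lower in astrocyte-like and 3 in microglia-like cells. The GC correction and the omission of the cluster led by mitotic genes were chosen after seeing the data. The genes most like Eef1a2 depended on the measure: of the 8, 3 stayed among the first 8 with a pseudocount of 1 and 5 by Spearman rank correlation. Apart from the construction of each alternative, the cause of these shifts was not tested. The 4 vehicle UMIs in astrocyte-like cells limit every Eef1a2 statement on that class.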

Other observations

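The cluster of oligodendrocyte precursor-like cells led by mitotic genes, with 10 FGF21 and 3 vehicle cells, had more Eef1a1 and less Eef1a2 than the rest of its class in the FGF21 library. Eef1a1 was at 1582 CPM in the FGF21 and 1544 CPM in the vehicle library, and Eef1a2 at 55.9 CPM and 63.0 CPM from 7 and 2 UMIs. The Eef1a2 share was 3.42% (1.38% to 6.91%) in the FGF21 and 3.92% (0.479% to 13.5%) in the vehicle library. Eef1g stood at 232 CPM in the FGF21 and 126 CPM in the vehicle library.

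Over the 26 points of class and library, Eef1a1 followed Eef2 (Pearson 0.85) and Eef1b2 (0.83) more closely than Eef1g (0.63) or Eef1d (0.54). The points share libraries and depth, and these coefficients are descriptions.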
